A study of Mus musculus with 37 samples.

Results

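The genes described here encode the catalytic core and the variant subunits of Polycomb repressive complex 1 (PRC1): the ubiquitin ligases Rnf2 (RING1B) and Ring1 (RING1A), the PCGF proteins Pcgf1, Pcgf2, Pcgf3, Bmi1 (PCGF4), Pcgf5 and Pcgf6, and the variant subunits Rybp and Kdm2b. They were looked up by gene symbol, and all 10 were found among the 55401 genes listed in the deposited expression tables. The 10 were chosen with earlier results of these data known. The study deleted Bap1, which encodes the catalytic subunit of the H2AK119 deubiquitinase PR-DUB, in mouse oocytes and followed the oocytes and the embryos made from them. It comprised 26 total RNA libraries of 5 stages and 11 poly(A) libraries of 3 tissues dissected at embryonic day 6.5. Expression was given as FPKM, which is corrected for transcript length, so levels of different genes can be set side by side within a library.

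Knockout oocytes carried Gdf9-iCre and Bap1flox/flox, and control oocytes carried Bap1flox/flox without the recombinase, so both genotypes had the floxed allele. The Gdf9 promoter drives the recombinase in oocytes, and the Bap1 deletion is therefore maternal in the embryos. Embryos were fathered by B6 males up to the 2-cell stages and by PWK males at embryonic day 6.5, and the sperm were wild type in every group. Fully grown oocytes (FGO), MII eggs, late 1-cell (L1C) and late 2-cell (L2C) embryos were each represented by 2 control and 3 knockout libraries, and early 2-cell (E2C) embryos by 3 per genotype. At day 6.5 there were 2 libraries per genotype of epiblast (EPI) and of visceral endoderm (VE), whereas for extraembryonic ectoderm (EXE) a single control was set beside 2 knockouts. Neither the age of the mice nor the number of oocytes, embryos or litters behind a library is given in the sources used here, so p-values measure only the spread between these libraries, which may be technical.

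PRC1 places ubiquitin on histone H2A, the H2AK119 mark, and PR-DUB removes it. Each complex pairs RNF2 or RING1 with a single PCGF protein, and the PCGF protein decides which other subunits can join. PCGF2 and BMI1 are found in canonical complexes with CBX and PHC proteins, and also in variant complexes, whereas PCGF1, PCGF3, PCGF5 and PCGF6 are found in variant complexes that contain RYBP or its relative YAF2. KDM2B brings the PCGF1 complex to unmethylated CpG islands through its zinc finger, and PCGF6 works with the E-box binding pair MGA and MAX. In growing oocytes PRC1 is known for silencing developmental genes and for shaping the transcriptome passed to the embryo.

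The upstream promoter sequences of Bmi1, Pcgf5 and Kdm2b are shown because Bmi1 was the most abundant PCGF transcript from the oocyte to the 2-cell embryo, Pcgf5 rose most in late 2-cell embryos and differed most between the day 6.5 tissues, and Kdm2b had the knockout difference that persisted under every setting tried. They are RefSeq sequences of build GRCm38.p6, written 5′ to 3′ on the strand of the gene, and capitals mark each CpG dinucleotide, the target of the KDM2B zinc finger.
Bmi1, chr2:18676768-18677017, plus strand: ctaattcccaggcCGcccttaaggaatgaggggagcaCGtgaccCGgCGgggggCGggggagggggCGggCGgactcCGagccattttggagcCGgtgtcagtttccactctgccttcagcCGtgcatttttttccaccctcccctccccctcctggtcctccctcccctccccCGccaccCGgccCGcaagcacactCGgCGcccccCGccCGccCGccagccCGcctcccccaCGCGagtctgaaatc
Pcgf5, chr19:36348079-36348328, plus strand: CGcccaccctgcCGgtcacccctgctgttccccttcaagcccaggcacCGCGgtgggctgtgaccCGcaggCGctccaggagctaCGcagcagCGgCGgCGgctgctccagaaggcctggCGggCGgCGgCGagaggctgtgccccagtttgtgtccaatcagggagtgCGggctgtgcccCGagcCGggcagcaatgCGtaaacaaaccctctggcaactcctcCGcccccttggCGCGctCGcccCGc
Kdm2b, chr5:122989100-122989349, minus strand: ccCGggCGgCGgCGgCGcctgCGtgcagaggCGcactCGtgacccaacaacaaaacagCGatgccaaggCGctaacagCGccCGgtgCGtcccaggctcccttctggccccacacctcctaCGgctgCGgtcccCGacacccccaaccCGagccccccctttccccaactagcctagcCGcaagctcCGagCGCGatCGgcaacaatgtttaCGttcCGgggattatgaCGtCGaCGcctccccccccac
The windows shown, each of the 250 bases before a start, held 21 CpG dinucleotides in Bmi1, 23 in Pcgf5 and 27 in Kdm2b. The median was 6 over 32851 RefSeq promoter windows of this length. Windows were at hand for 8 of the 10 genes, with 13 windows in all because Pcgf5 had 3 and Kdm2b 4. The other Pcgf5 windows held 4 and 28 CpG, and the other Kdm2b windows 38, 36 and 12. The Kdm2b windows with 38 and 36 share most of their bases and are both counted among the 13. Ring1 had 30 CpG in its window, Rnf2 20, Pcgf3 16, Pcgf6 14 and Pcgf2 5. The E-box CACGTG, searched on both strands, lay in 2 of the 13 windows, those of Pcgf2 and Bmi1, and in 6.02% of all windows. The letters GGATTA, searched on both strands, lay in 1 of the 13, the Kdm2b window shown, and in 6.25% of all windows. GGATTA is the core bound by OBOX and OTX homeodomain proteins, and the Kdm2b window shown was picked for it from the 4 of that gene. These matches describe letters only. The Bmi1 window ends at the base before the annotated gene, the Pcgf5 window runs into its first exon, and the Kdm2b window lies inside the annotated gene, before an internal start.

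Bap1 and cell type markers were checked against the labels. Bap1 ranged from 16.3 to 29.9 FPKM in the control total RNA libraries and from 3.76 to 11.7 in the knockouts. In the poly(A) libraries it gave no check of the genotype labels. In EPI it stood at 22.6 and 14.1 FPKM in controls and 21.8 and 33.8 in knockouts. In VE the values were 14.0 and 15.6 against 18.3 and 19.4, and in EXE 21.8 against 24.0 and 23.1. Markers of visceral endoderm and of extraembryonic ectoderm separated the day 6.5 tissues. The 6 visceral endoderm markers (Ttr, Apoa1, Apob, Afp, Amn and Cubn) summed to between 6948 and 8113 FPKM in VE. In EPI and EXE they summed to at most 14.0. The 6 extraembryonic ectoderm markers summed to between 325 and 370 FPKM in EXE and to at most 27.2 in EPI and VE. Of these 6, Esx1 reached at most 0.970 FPKM in any poly(A) library. The 6 epiblast markers summed to 965 to 1452 FPKM in EPI, 408 to 506 in EXE and 49.1 to 166 in VE. All 6 reached 1 FPKM in the EXE control library and in EXE knockout replicate 2, against 2 of 6 in EXE knockout replicate 1. The part of this epiblast signal in the EXE levels below was not tested. The 4 decidua and maternal blood markers summed to 22.5 FPKM in 1 VE knockout library and at most 3.88 in the others. The 10 granulosa and cumulus cell markers summed to at most 11.4 FPKM in any total RNA library, with at most 2 of them at 1 FPKM. Only Amhr2, Cyp19a1 and Tnfaip6 reached that level in any of these libraries. The sum of the 10 was still higher in controls than in knockouts at all 5 stages. It was 7.13 to 8.43 against 2.66 to 3.30 FPKM in fully grown oocytes, and 11.1 to 11.4 against 2.87 to 3.09 in late 2-cell embryos. Their part in the knockout differences below was not tested. FPKM keep no read totals, so the depth behind each value is unknown.

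Genes were tested on log2(FPKM + 1) with limma, and a gene was called at a Benjamini-Hochberg adjusted p under 0.05. In the total RNA libraries 8 of the 10 genes reached 1 FPKM in 2 libraries and were tested among 15184 genes, while Ring1 and Pcgf2 did not. All 10 were tested in the poly(A) libraries. Differences between groups below are on the log2(FPKM + 1) scale, with standard errors, and understate the change of genes at low levels. FPKM are relative within a library, and in these libraries fewer cells of a type and less RNA per cell cannot be told apart.

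Of the 2 ligase genes, Rnf2 was the one with abundant transcripts from the oocyte to the 2-cell embryo. It lies at chr1:151458004-151500955 on the minus strand (GRCm38, GENCODE M21, as for the coordinates below). In the control libraries Rnf2 stood at 45.4 and 48.6 FPKM in fully grown oocytes, 45.3 and 41.3 in MII eggs, 56.7 and 53.2 in late 1-cell embryos, 70.9, 59.1 and 69.9 in early 2-cell embryos and 65.9 and 61.7 in late 2-cell embryos. The 2-cell levels lay above every oocyte and egg library. Ring1 (chr17:34020792-34024680, minus strand) reached at most 0.214 FPKM in the 26 total RNA libraries and was listed at 0 in 14 of them, including all 6 early 2-cell libraries. Ring1 transcripts were therefore close to the lower end of what these libraries report, although Ring1 was listed above 0 in all 11 poly(A) libraries.

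Bmi1 (chr2:18677018-18686629, plus strand) was the most abundant of the 10 transcripts in each of the 5 early stages in both genotypes. Its control values were 170.3 and 171 FPKM in fully grown oocytes, 195 and 183 in MII eggs, 264 and 263 in late 1-cell embryos, 493, 497 and 421 in early 2-cell embryos, and 539 and 555 in late 2-cell embryos. Every control library of a stage lay above every control library of the stage before it. Mean Bmi1 in control late 2-cell embryos was above 99.78% of the genes tested. Some of this signal is uncertain, since 16.7% of the 50-base words of Bmi1 transcripts also occur in other genes, chiefly its processed copy Gm5946, which was listed at 26.01 to 97.08 FPKM in total RNA and at most 0.0636 in poly(A) libraries.

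Pcgf1, the PCGF protein of the KDM2B complex (chr6:83077869-83080855, plus strand), ran the other way. Its control values were 118 and 123 FPKM in fully grown oocytes, 129 and 145 in MII eggs, 126 and 121 in late 1-cell embryos, 59.3, 47.9 and 47.5 in early 2-cell embryos, and 28.5 and 27.9 in late 2-cell embryos. Levels were similar through the first 3 stages and stepped down at both 2-cell stages, with no overlap. Of the 50-base words of Pcgf1, 15.3% also occur elsewhere, chiefly in Gm8930, which was listed at no more than 12.3 FPKM.

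Pcgf6, the PCGF protein of the MGA and MAX complex (chr19:47033617-47050906, minus strand), followed a rise with a sharp drop. Its control values were 50.6 and 51.4 FPKM in fully grown oocytes, 59.8 and 55.5 in MII eggs, 75.5 and 71.2 in late 1-cell embryos, 27.9, 22.1 and 25.2 in early 2-cell embryos, and 39.0 and 28.3 in late 2-cell embryos. The late 1-cell libraries were the highest and the early 2-cell libraries the lowest.

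Pcgf5 (chr19:36348309-36460970, plus strand) was scarce until the late 2-cell stage. Its control values were 1.85 and 2.96 FPKM in fully grown oocytes, 3.26 and 2.74 in MII eggs, 1.94 and 2.36 in late 1-cell embryos, 5.77, 7.13 and 1.82 in early 2-cell embryos, and 44.2 and 54.0 in late 2-cell embryos. Only the late 2-cell libraries of the controls exceeded 10 FPKM. Its close relative Pcgf3 (chr5:108461232-108506976, plus strand) ranged far less, between 9.41 and 15.5 FPKM over the 11 control total RNA libraries.

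Pcgf2, which like BMI1 can enter canonical PRC1 (chr11:97688823-97700497, minus strand), reached at most 0.896 FPKM in the 26 total RNA libraries and was listed at 0 in 14. Over the 11 poly(A) libraries its values lay between 6.91 and 40.2 FPKM. The 2 library types differ in kit and developmental stage together, so the step from the early stages to day 6.5 was not tested for any gene.

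**Figure D1:**
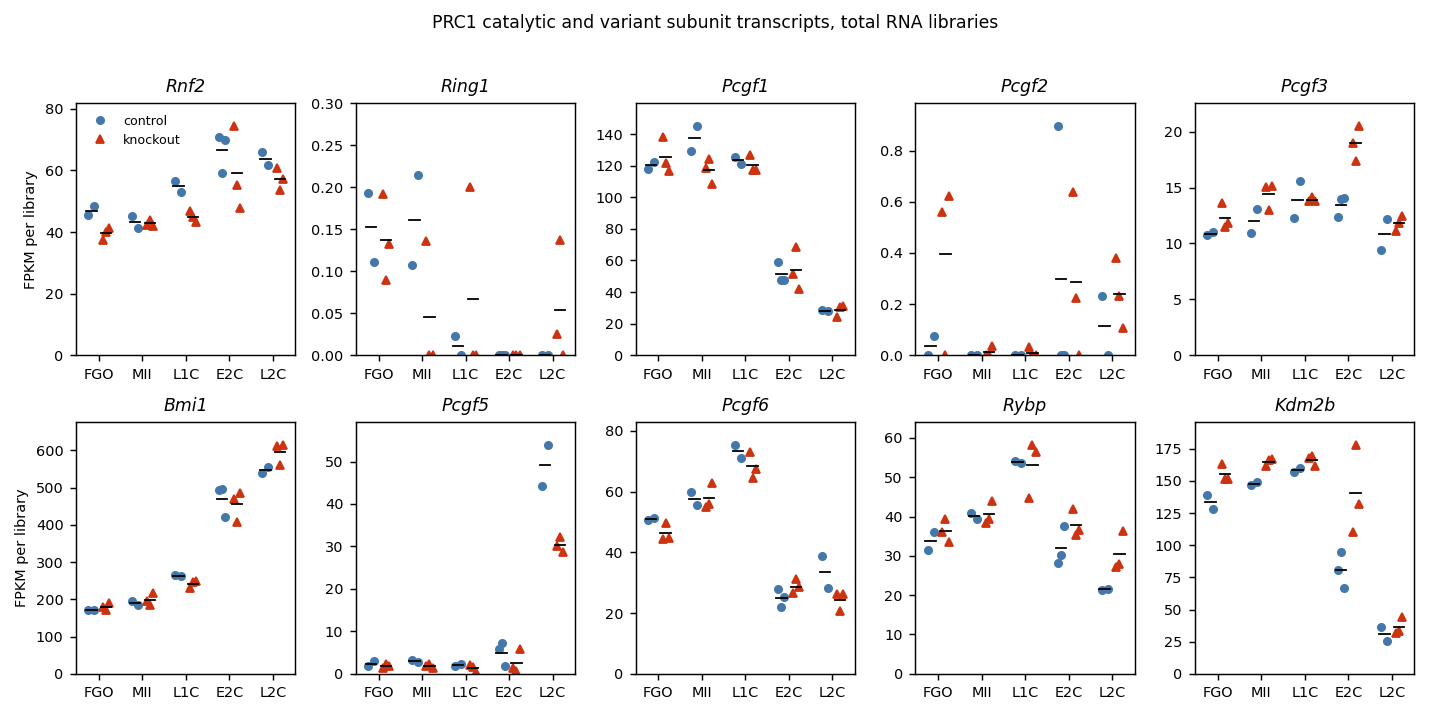
FPKM of the 10 genes in each of the 26 total RNA libraries, by stage (FGO, fully grown oocytes; MII, eggs; L1C, late 1-cell; E2C and L2C, early and late 2-cell). Circles are control and triangles knockout libraries, horizontal lines are group means, and each panel has its own linear scale starting at 0; Bmi1 climbs with stage, Pcgf1 and Kdm2b fall at the 2-cell stages, and Pcgf5 appears in late 2-cell embryos.

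Rybp, the shared subunit of variant PRC1 that stimulates its ligase activity (chr6:100228565-100287485, minus strand), peaked in late 1-cell embryos. The control values were 31.5 and 36.2 FPKM in fully grown oocytes, 40.9 and 39.3 in MII eggs, 54.1 and 53.6 in late 1-cell embryos, 28.1, 30.1 and 37.7 in early 2-cell embryos, and 21.3 and 21.6 in late 2-cell embryos. The late 2-cell libraries were the lowest. A processed copy, Rybp-ps, shares 8.93% of the 50-base words of Rybp and was listed at 9.20 to 59.9 FPKM in total RNA libraries, so part of the Rybp signal is uncertain.

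Kdm2b (chr5:122870665-122989823, minus strand) was the second most abundant of the 10 transcripts in control oocytes, eggs and late 1-cell embryos, and lost most of its level by the late 2-cell stage. Its control values were 139 and 128 FPKM in fully grown oocytes, 147 and 149 in MII eggs, 157 and 160.4 in late 1-cell embryos, 81.0, 95.1 and 66.9 in early 2-cell embryos, and 36.3 and 25.3 in late 2-cell embryos. The fall at each 2-cell stage left no overlap with the stage before. Kdm2b overlaps Rnf34 on the opposite strand over 5.77% of its exonic bases, and whether the authors counted by strand is not given in the sources used here, so reads there cannot be assigned with certainty.

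In control oocytes, eggs and late 1-cell embryos the mean levels ran in the order Bmi1, Kdm2b, Pcgf1, Pcgf6, Rnf2, Rybp, Pcgf3 and Pcgf5. Neighbours in that order did not overlap between libraries in these 3 groups, apart from Rnf2 and Rybp in late 1-cell embryos. In control early 2-cell embryos Bmi1 was followed by Kdm2b, Rnf2 and Pcgf1, whose libraries overlapped from 1 to the next. In control late 2-cell embryos the order was Bmi1, Rnf2, Pcgf5, then Pcgf6, Kdm2b and Pcgf1, which overlapped with their neighbours, then Rybp and Pcgf3.

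Steps between consecutive stages in the controls were tested in the same fit. From fully grown oocytes to MII eggs, limma called 0 of the 8 genes, against 5.39% of all genes, and 2 of the 8 had an unadjusted p under 0.05. From MII eggs to late 1-cell embryos 4 of 8 were called higher and 0 lower, against 25.4% of all genes called in either direction and 9.6% called higher. Bmi1 rose by 0.48 ± 0.07 (adjusted p = 3.0e-05), Rybp by 0.42 ± 0.11 (adjusted p = 0.0072), Pcgf6 by 0.34 ± 0.09 (adjusted p = 0.0094) and Rnf2 by 0.34 ± 0.08 (adjusted p = 0.0037). The calls of Rybp, Pcgf6 and Rnf2 were lost without MII control replicate 2, without late 1-cell control replicate 1 and without library weights, and that of Pcgf6 also under TPM scaling.

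From late 1-cell to early 2-cell embryos 5 of the 8 genes were called in the controls, 1 higher and 4 lower, against 47.2% of all genes, made up of 18.1% higher and 29.1% lower. Bmi1 rose by 0.83 ± 0.10 (limma adjusted p = 5.0e-07). Pcgf6 fell by 1.52 ± 0.13 (adjusted p = 6.0e-09), and the changes were -1.25 ± 0.14 in Pcgf1 (adjusted p = 2.9e-07), -0.98 ± 0.14 in Kdm2b (adjusted p = 1.0e-05) and -0.75 ± 0.15 in Rybp (adjusted p = 0.00035). Pcgf3 and Pcgf5, also of variant complexes, were not called, at -0.04 ± 0.15 (limma adjusted p = 0.85) and 0.77 ± 0.46 (adjusted p = 0.18). All 5 calls held under the 14 alternatives run for each.

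From early to late 2-cell embryos, again in controls, 2 genes rose and 3 fell, against 51.7% of all genes called, made up of 29.2% higher and 22.5% lower. Pcgf5 rose by 3.21 ± 0.56 (limma adjusted p = 5.1e-05), and Pcgf6 by 0.40 ± 0.16 (adjusted p = 0.040). Kdm2b fell by 1.37 ± 0.18 (adjusted p = 1.2e-06), and the changes were -0.84 ± 0.17 in Pcgf1 (adjusted p = 0.00029) and -0.54 ± 0.18 in Rybp (adjusted p = 0.017). The Pcgf6 call was lost under 9 of 14 alternatives, with values from 0.15 to 0.62, and the Rybp call under 4 of 14, of which 3 left out early 2-cell control replicate 3 or either late 2-cell control library. Bmi1 differed by 0.22 ± 0.12 (adjusted p = 0.13). Its difference was -0.03 when libraries were centred on their medians, and it passed the threshold under quantile normalization (0.42, adjusted p = 0.0017) and without library weights (0.22, adjusted p = 0.033). The median of all genes moved by -0.25 under that centring.

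The same steps were tested in the knockouts, where the falls of Pcgf1 and Pcgf6 and the rises of Bmi1 and Pcgf5 were called as well. In the knockouts 1 of 8 genes was called from fully grown oocytes to MII eggs, against 13.8% of all genes and 6.49% called higher: Pcgf6 rose by 0.31 ± 0.08 (limma adjusted p = 0.0077), a call lost without library weights. From MII eggs to late 1-cell embryos 3 of 8 rose, against 16.4% of all genes called and 5.36% called higher, and these were Rybp (0.37 ± 0.09, adjusted p = 0.0056), Bmi1 (0.28 ± 0.06, adjusted p = 0.0013) and Pcgf6 (0.24 ± 0.08, adjusted p = 0.035). The Pcgf6 call was lost under 7 alternatives, among them leaving out MII knockout replicate 1 or 2 or late 1-cell knockout replicate 1 or 3, and the Rybp call was lost without late 1-cell knockout replicate 2 and without library weights.

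From late 1-cell to early 2-cell embryos 6 of the 8 genes were called in the knockouts, 3 higher and 3 lower, against 41.7% of all genes, made up of 15.2% higher and 26.5% lower. Bmi1 rose by 0.91 ± 0.09 (limma adjusted p = 9.5e-08), Pcgf3 by 0.42 ± 0.14 (adjusted p = 0.019) and Rnf2 by 0.37 ± 0.11 (adjusted p = 0.0082). Pcgf6 fell by 1.22 ± 0.12 (adjusted p = 8.4e-08), and the changes were -1.17 ± 0.13 in Pcgf1 (adjusted p = 5.1e-07) and -0.47 ± 0.14 in Rybp (adjusted p = 0.011). Kdm2b differed by -0.27 ± 0.14 (adjusted p = 0.12), and without early 2-cell knockout replicate 2 by -0.46 (adjusted p = 0.015). The Pcgf3 call was lost under TPM scaling and without early 2-cell knockout replicate 1 or 3, the Rnf2 call under TPM scaling and without replicate 1, and the Rybp call under median centring and without replicate 2 or 3.

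From early to late 2-cell embryos 2 of 8 rose and 3 fell in the knockouts, against 45.5% of all genes called, made up of 27.4% higher and 18.1% lower. Pcgf5 rose by 3.42 ± 0.51 (limma adjusted p = 1.0e-05) and Bmi1 by 0.39 ± 0.11 (adjusted p = 0.0049). Kdm2b fell by 1.91 ± 0.16 (adjusted p = 4.9e-09), and the changes were -0.88 ± 0.16 in Pcgf1 (adjusted p = 8.0e-05) and -0.64 ± 0.16 in Pcgf3 (adjusted p = 0.0025). The Bmi1 call was lost under TPM scaling (0.24, adjusted p = 0.12) and under median centring (0.09, adjusted p = 0.61).

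Seen as a pool, the 6 PCGF transcripts passed from a mixed set in the oocyte to one dominated by Bmi1. Bmi1 made up on average 48.0% of the summed PCGF FPKM in control fully grown oocytes, 55.4% in late 1-cell, 83.1% in early 2-cell and 81.8% in late 2-cell embryos. Pcgf1 made up 33.8%, 25.9%, 9.12% and 4.22% at the same stages, and Pcgf6 14.4%, 15.4%, 4.46% and 5.04%. Pcgf5 went from 0.676% in control fully grown oocytes to 7.34% in control late 2-cell embryos. In knockout late 2-cell embryos Bmi1 made up 85.5 to 87.0% of the pool in single libraries against 81.6 to 81.9% in controls, and Pcgf5 4.02 to 4.93% against 6.69 to 7.98%, with no overlap in either case. These shares were not tested.

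**Figure D2:**
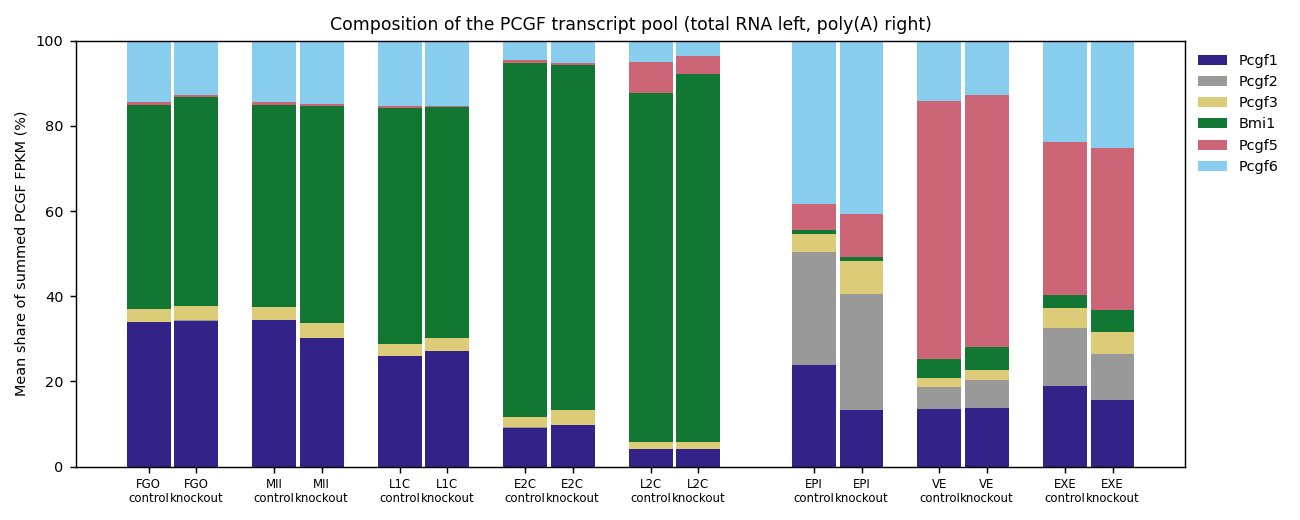
Mean share of each PCGF transcript in the summed FPKM of the 6 PCGF genes (vertical axis, percent) for each group of libraries, total RNA to the left and poly(A) to the right, where EPI, VE and EXE are epiblast, visceral endoderm and extraembryonic ectoderm at embryonic day 6.5. Bmi1 fills 48.0% of the pool in control fully grown oocytes and 83.1% in control early 2-cell embryos, and Pcgf5 fills 60.5% in control visceral endoderm.

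The knockout was compared with the control at each stage. In these comparisons rose and fell mean higher and lower in knockouts than in controls of that stage. In fully grown oocytes 1 of the 8 genes was called, against 13.9% of all genes and 9.97% called lower, and the libraries of 5 of the 8 did not overlap, against 41.8% of all genes. Rnf2 was at 37.5, 40.2 and 41.2 FPKM in the knockouts, below both controls at 45.4 and 48.6. It fell by 0.24 ± 0.08 (limma adjusted p = 0.040), a call lost under 13 of 15 alternatives, among them leaving out any 1 of the 5 libraries. The other genes without overlap were Bmi1 (knockouts 179, 172 and 189 FPKM), Kdm2b (163, 152 and 152) and Pcgf3 (13.6, 11.5 and 11.9), each above both controls, and Pcgf6 (44.4, 49.8 and 44.8), below both controls. Their differences of 0.08 ± 0.07, 0.22 ± 0.10, 0.16 ± 0.10 and -0.14 ± 0.09 did not pass the test (adjusted p between 0.17 and 0.52).

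In MII eggs limma called 0 of the 8 genes, against 16.8% of all genes, with 2 of the 8 at an unadjusted p under 0.05. The libraries of 3 did not overlap, against 41.7% of all genes. These were Pcgf1 at 118, 124 and 108 FPKM in the knockouts, below the controls, Pcgf5 at 1.92, 2.36 and 1.46, also below them, and Kdm2b at 161, 166 and 167, above them. Pcgf1 differed by -0.23 ± 0.09 (adjusted p = 0.082) and Pcgf3 by 0.25 ± 0.09 (adjusted p = 0.062). The Pcgf3 libraries stood at 15.1, 13.0 and 15.2 FPKM in the knockouts against 10.9 and 13.1, and its difference passed the threshold under TPM scaling, median centring and quantile normalization, and without MII control replicate 2 or knockout replicate 2.

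In late 1-cell embryos 1 of the 8 genes was called, against 17.6% of all genes and 10% called lower, and 3 did not overlap, against 43% of all genes. Rnf2 stood at 46.7, 44.9 and 43.3 FPKM in the knockouts, below both controls at 56.7 and 53.2, and fell by 0.28 ± 0.08 (limma adjusted p = 0.014). That call was lost under 4 of 15 alternatives, among them TPM scaling (adjusted p = 0.071), the fit without library weights (adjusted p = 0.20) and that without late 1-cell control replicate 1 (adjusted p = 0.16). Trmt1l, a tRNA methyltransferase-like gene, overlaps Rnf2 on the opposite strand over 3.83% of the exonic bases of Rnf2. It differed by -0.10 (adjusted p = 0.56) at this stage. At the other stages its differences were -0.28 in fully grown oocytes (adjusted p = 0.0685) and -0.38 in MII eggs (adjusted p = 0.0042). They were -0.72 in early 2-cell embryos (adjusted p = 0.0075) and -0.32 in late 2-cell embryos (adjusted p = 0.14). The part of Trmt1l in the Rnf2 differences was not tested. Bmi1, at 229.6, 245 and 249 FPKM, lay below both controls, and Kdm2b, at 168, 169.7 and 161, above both, without passing the test.

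Kdm2b was higher in knockout than in control early 2-cell embryos. It stood at 110.5, 178 and 132 FPKM in the knockouts and at 81.0, 95.1 and 66.9 in the controls, so every knockout library exceeded every control library. It was higher by 0.77 ± 0.17 (limma adjusted p = 0.0044) and was the 1 of 8 genes called, against 13.5% of all genes and 6.2% called higher. The call held under all 16 alternatives, with differences from 0.59 to 0.93 and adjusted p from 0.00058 to 0.037. Rnf34, which overlaps Kdm2b on the other strand, differed by -0.05 (adjusted p = 0.91).

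The libraries of 2 of the 8 genes did not overlap in early 2-cell embryos, against 29.7% of all genes, and the other was Pcgf3. Its knockout libraries stood at 19.0, 17.4 and 20.5 FPKM against 12.3, 14.0 and 14.1 in the controls. The difference of 0.46 ± 0.17 missed the threshold (limma adjusted p = 0.084) and passed it under TPM scaling (adjusted p = 0.027), median centring (adjusted p = 0.027) and without library weights (adjusted p = 0.0029). Bmi1, at 471, 409 and 487 FPKM, Pcgf1, at 51.5, 68.5 and 42.1, and Rnf2, at 74.4, 55.3 and 47.9, overlapped with their controls. Pcgf5 stood at 1.35, 0.549 and 5.88 FPKM and Rybp at 41.9, 35.2 and 36.5, each also overlapping, with differences of -0.88 ± 0.54 (adjusted p = 0.34) and 0.24 ± 0.18 (adjusted p = 0.44). The 4 markers of the 2-cell embryo (Zscan4c, Zscan4d, Zfp352 and Usp17lc) summed to 70.7 to 156 FPKM in the knockouts and 174 to 240 in the controls, and the 5 oocyte markers to 497 to 693 against 572 to 659. The part of these differences in the Kdm2b result was not tested.

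From late 1-cell to early 2-cell embryos mean Kdm2b went from 159 to 81.0 FPKM in controls and from 166 to 140 in knockouts. The Kdm2b difference in early 2-cell embryos was set against the late 1-cell stage, where the knockouts differed by 0.07 ± 0.10 (limma adjusted p = 0.75). It was also set against the late 2-cell stage, where they differed by 0.23 ± 0.16 (adjusted p = 0.30). The knockout difference grew from late 1-cell to early 2-cell by 0.71 ± 0.20, which missed the threshold (limma adjusted p = 0.055), and changed by -0.54 ± 0.24 (adjusted p = 0.13) from early to late 2-cell. In late 2-cell embryos Kdm2b was at 31.4, 33.4 and 43.9 FPKM in the knockouts and 36.3 and 25.3 in the controls, with overlap. The overlapping gene Rnf34 was higher in the knockouts at that stage by 0.56 (limma adjusted p = 0.0053). Of all genes, 3.35% had a called change in the knockout difference from late 1-cell to early 2-cell, and 0 of the 8 did, with 2 of the 8 at an unadjusted p under 0.05.

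In late 2-cell embryos 2 of the 8 genes were called, 1 in each direction, against 34.2% of all genes, made up of 17% higher and 17.2% lower, and 5 did not overlap, against 56.8% of all genes. Rybp stood at 27.2, 28.0 and 36.3 FPKM in the knockouts, above the controls at 21.3 and 21.6. It rose by 0.48 ± 0.17 (limma adjusted p = 0.036). Its processed copy Rybp-ps differed by 0.46 (adjusted p = 0.45), and the part of the copy in the Rybp difference was not tested. Pcgf6 stood at 26.3, 20.5 and 26.3 FPKM, below the controls at 39.0 and 28.3, and fell by 0.44 ± 0.15 (adjusted p = 0.025). Both calls were lost without a filter on low values. The Rybp call was lost under 5 of 15 alternatives, among them leaving out late 2-cell control replicate 1 or 2 or knockout replicate 3, and the Pcgf6 call under TPM scaling (adjusted p = 0.20), under median centring (adjusted p = 0.053), in the stage alone (adjusted p = 0.074), and without control replicate 1 or knockout replicate 2. Without control replicate 1 the Pcgf6 difference was -0.21 (adjusted p = 0.42).

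Pcgf5 stood at 30.1, 32.3 and 28.7 FPKM in knockout late 2-cell embryos and at 44.2 and 54.0 in the controls, with a clear gap between the genotypes. Its difference of -0.67 ± 0.52 did not pass the test in the fit of all stages (limma adjusted p = 0.35) and passed it when the late 2-cell libraries were fitted alone (adjusted p = 0.0039). Bmi1, at 613, 559.7 and 616 FPKM, lay above its controls, and Rnf2, at 60.8, 53.6 and 57.1, below its controls, and neither was called. Pcgf1 at 24.0, 30.4 and 30.9 FPKM and Pcgf3 at 11.1, 11.8 and 12.5 overlapped with their controls.

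Stage markers also moved at the late 2-cell stage. The 4 markers of the 2-cell embryo summed to 246 to 309 FPKM in the knockouts and 75.3 to 79.8 in the controls, and the 5 oocyte markers (Zp3, Gdf9, Bmp15, Nlrp5 and Mos) to 402 to 478 against 229.6 to 237, with no overlap. Their part in the Rybp, Pcgf6 and Pcgf5 differences was not tested.

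**Figure D3:**
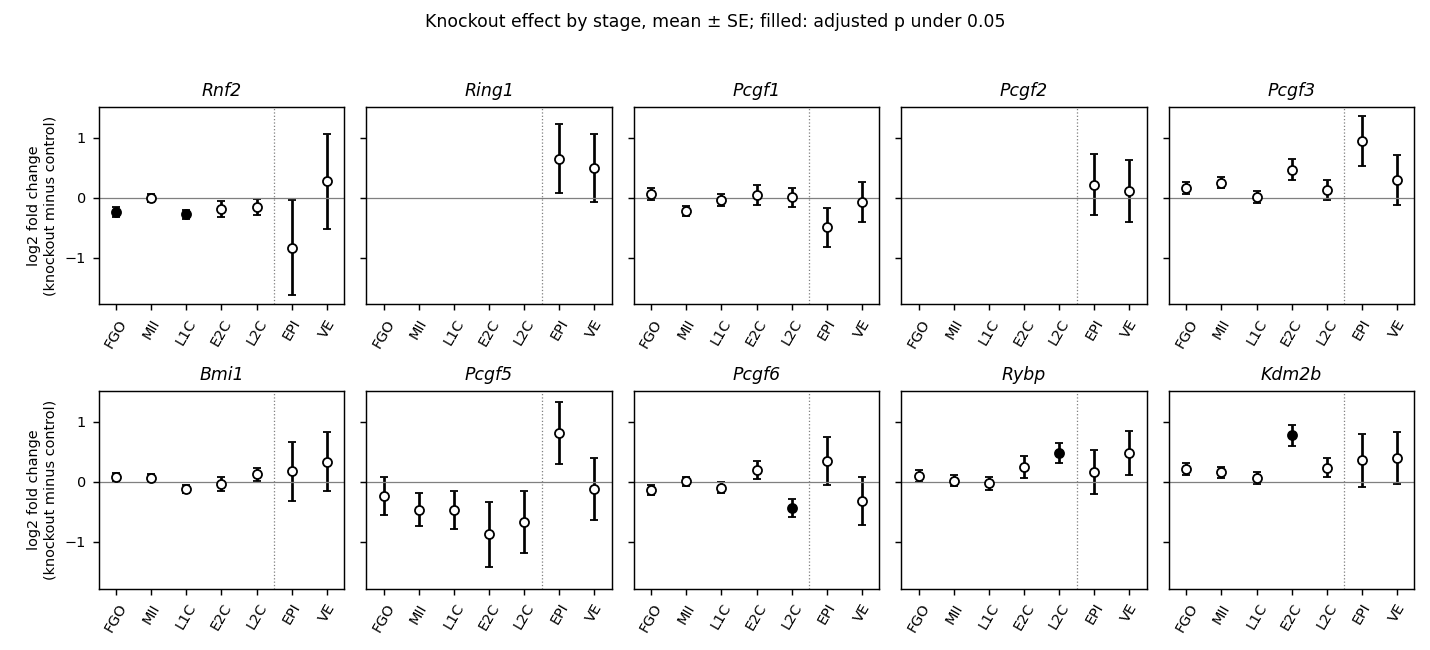
Difference between knockout and control libraries for each gene, in log2(FPKM + 1), with its standard error from limma, at the 5 early stages and, right of the dotted line, in epiblast and visceral endoderm. Filled points have an adjusted p under 0.05: Rnf2 in fully grown oocytes and late 1-cell embryos, Kdm2b in early 2-cell embryos, and Pcgf6 and Rybp in late 2-cell embryos; Ring1 and Pcgf2 were not tested in total RNA libraries.

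For the other steps, the change in the knockout difference was called for 0 of the 8 genes from fully grown oocytes to MII eggs and 0 of the 8 from MII eggs to late 1-cell embryos, against 0% and 0.198% of all genes, with limma and with 2 of the 8 at an unadjusted p under 0.05 in each. From early to late 2-cell it was called for 1, Pcgf6, in the lower direction, against 18.9% of all genes and 9.37% in that direction. The Rnf2 difference was -0.28 in late 1-cell embryos and -0.01 in MII eggs, and these differed by -0.27 ± 0.10 (adjusted p = 0.26).

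At embryonic day 6.5 every PCGF transcript was listed in every tissue, and the levels of Pcgf5, Bmi1, Pcgf2 and Kdm2b differed between tissues. Pcgf5 was high in the extraembryonic tissues and Bmi1 was low in epiblast. Kdm2b and Pcgf2 were lower in visceral endoderm than in epiblast. Pcgf5 was at 133 and 92.4 FPKM in control visceral endoderm and 141 and 73.4 in knockout visceral endoderm, 46.7 in the control and 47.3 and 55.6 in the knockouts in extraembryonic ectoderm, and 4.35 and 5.76 in control and 5.51 and 16.1 in knockout epiblast. The 3 tissues did not overlap, with visceral endoderm the highest and epiblast the lowest. Averaged over genotypes, Pcgf5 was higher in visceral endoderm than in epiblast by 3.75 ± 0.34 (limma adjusted p = 3.1e-05) and in extraembryonic ectoderm than in epiblast by 2.65 ± 0.38 (adjusted p = 0.0011). Between extraembryonic ectoderm and visceral endoderm it differed by -1.10 ± 0.38 (adjusted p = 0.069).

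Bmi1 was lowest in epiblast, where its control mean lay above 14.26% of the genes tested, against 57.64% in control visceral endoderm and 42.65% in the control library of extraembryonic ectoderm. It stood at 0.428 and 1.20 FPKM in control and 0.451 and 1.74 in knockout epiblast, at 4.60 and 10.7 in control and 9.66 and 8.78 in knockout visceral endoderm, and at 3.75 in control and 7.03 and 6.40 in knockout extraembryonic ectoderm. All 4 epiblast libraries lay below all other libraries. The difference from epiblast was 2.27 ± 0.33 in visceral endoderm (limma adjusted p = 0.00050) and 1.69 ± 0.36 in extraembryonic ectoderm (adjusted p = 0.0097).

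Kdm2b and Pcgf2 ran higher in epiblast than in visceral endoderm. Kdm2b stood at 9.78 and 5.41 FPKM in control and 11.5 and 8.02 in knockout epiblast, at 1.15 and 2.13 in control and 3.11 and 1.82 in knockout visceral endoderm, and at 5.22 in control and 4.11 and 2.42 in knockout extraembryonic ectoderm. Every visceral endoderm library lay below every epiblast library, and the difference was -1.66 ± 0.30 (limma adjusted p = 0.0019). Pcgf2 stood at 29.7 and 17.3 FPKM in control and 40.2 and 17.4 in knockout epiblast, at 8.59 and 10.2 in control and 6.91 and 14.8 in knockout visceral endoderm, and at 17.7 in control and 17.6 and 11.8 in knockout extraembryonic ectoderm. The difference of visceral endoderm from epiblast was -1.25 ± 0.35 (limma adjusted p = 0.018), a call lost without a filter and without epiblast control replicate 1, visceral endoderm control replicate 1 or visceral endoderm knockout replicate 1.

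In all, 4 of the 10 genes were called between visceral endoderm and epiblast, 2 higher and 2 lower in visceral endoderm, against 38.4% of all genes, made up of 16.8% higher and 21.6% lower. Between extraembryonic ectoderm and epiblast 2 of 10 were called, both higher, against 19.6% of all genes and 9.13% called higher. Between extraembryonic ectoderm and visceral endoderm limma called 0 of 10, against 22.6%, and 2 of the 10 had an unadjusted p under 0.05. The lone control library of extraembryonic ectoderm was assumed to vary like the other groups.

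The remaining genes passed the test in no pair of tissues. Pcgf6 ranged from 15.5 to 50.7 FPKM over the 11 libraries and Pcgf1 from 13.9 to 28.6. Pcgf3 ranged from 2.23 to 9.71 FPKM, Rybp from 2.35 to 6.52 and Ring1 from 0.758 to 7.42. In control epiblast the order of mean levels was Pcgf6, Rnf2, Pcgf2 and Pcgf1, which overlapped with their neighbours, then Kdm2b, and Bmi1 came last. In control visceral endoderm it was Pcgf5, then Rnf2, Pcgf6 and Pcgf1, again overlapping, and Kdm2b came last.

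Rnf2 was uneven within epiblast, at 12.4 and 35.6 FPKM in the controls and 3.86 and 30.6 in the knockouts, with replicate 1 the low library in both genotypes. It stood at 33.08 and 26.02 in control and 42.0 and 30.1 in knockout visceral endoderm, and at 16.2 in control and 24.0 and 36.9 in knockout extraembryonic ectoderm.

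Visceral endoderm and epiblast differed in Rnf2 by 1.01 ± 0.55 (limma adjusted p = 0.18), and without epiblast knockout replicate 2 by 1.68 (adjusted p = 0.0062). The low Rnf2 of those epiblast libraries met the highest Ring1 values. Ring1 stood at 5.49 and 1.45 FPKM in control and 7.42 and 3.63 in knockout epiblast, so Ring1 made up 30.7% and 3.90% of the summed Ring1 and Rnf2 FPKM in control replicates 1 and 2, and 65.8% and 10.6% in knockout replicates 1 and 2. In visceral endoderm its share lay between 2.83% and 7.29%, and in extraembryonic ectoderm between 3.90% and 13.9%. These shares were not tested.

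**Figure D4:**
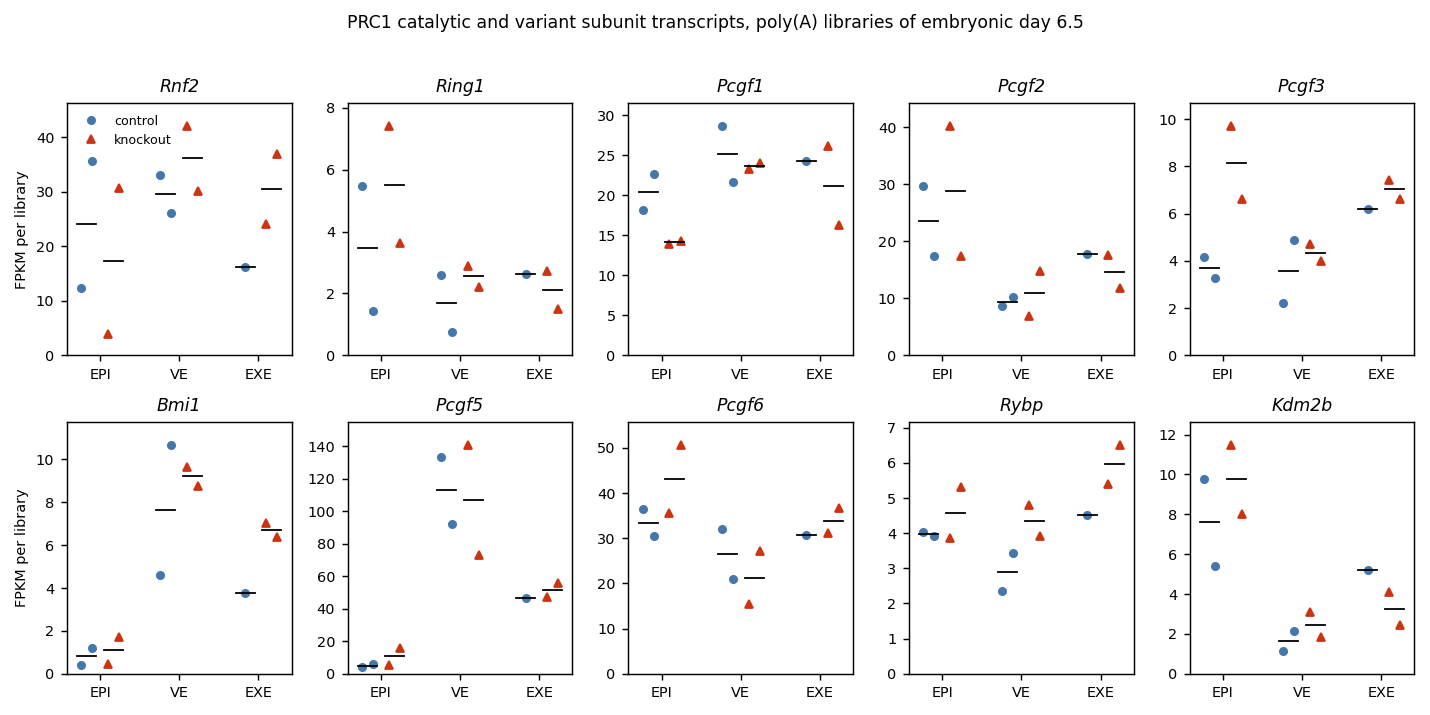
FPKM of the 10 genes in each of the 11 poly(A) libraries of epiblast (EPI), visceral endoderm (VE) and extraembryonic ectoderm (EXE) at embryonic day 6.5. Circles are control and triangles knockout libraries, lines are group means (1 control library in EXE), and each panel has its own linear scale starting at 0; Pcgf5 is highest in VE and Bmi1 lowest in EPI, and the genotypes mostly overlap.

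The PCGF pool was led by Pcgf6 in epiblast and by Pcgf5 in visceral endoderm and extraembryonic ectoderm. In control epiblast Pcgf6 held a mean share of 38.4%, Pcgf2 26.7% and Pcgf1 23.8%, with Bmi1 at 0.972%. In control visceral endoderm Pcgf5 held 60.5%, and in the control library of extraembryonic ectoderm it held 36.1%, followed by Pcgf6 at 23.7%. The knockout means were 40.6% for Pcgf6 in epiblast, and for Pcgf5 59.2% in visceral endoderm and 38.2% in extraembryonic ectoderm.

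Maternal knockout left no called difference in the 10 genes at day 6.5, in a fit that did not pair same-numbered libraries. Limma called 0 of 10 in epiblast, against 0% of all genes, and 0 of 10 in visceral endoderm, against 0.00748% of all genes, and 0 of the 10 had an unadjusted p under 0.05 in either tissue. The libraries of 2 of 10 did not overlap in epiblast, against 24% of all genes: Pcgf1, at 13.9 and 14.3 FPKM in knockouts and 18.1 and 22.7 in controls, and Pcgf3, at 9.71 and 6.60 against 4.14 and 3.29. Their differences were -0.49 ± 0.33 and 0.94 ± 0.42, each with a limma adjusted p of 1. In visceral endoderm Rybp alone did not overlap, 1 of 10 against 24.1% of all genes, at 4.79 and 3.93 FPKM in knockouts and 2.35 and 3.43 in controls (0.47 ± 0.37, adjusted p = 1). Standard errors ran from 0.33 to 0.80 in these tissues and from 0.06 to 0.54 at the early stages, so smaller differences could be called in the latter. The change in the knockout difference between visceral endoderm and epiblast was called for 0 of the 10 genes, against 0.00748% of all genes, again with limma and with 0 at an unadjusted p under 0.05. In extraembryonic ectoderm the knockout was not tested, since it has 1 control library. That library was the lowest of the 3 for 6 genes (Rnf2, Pcgf3, Bmi1, Pcgf5, Pcgf6 and Rybp) and the highest for Pcgf2 and Kdm2b, so 8 of 10 did not overlap, against 66% of all genes. Rybp stood there at 4.51 FPKM in the control and 5.40 and 6.52 in the knockouts, and Pcgf3 at 6.17 against 7.44 and 6.62.

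Other Polycomb genes gave a background for the 8 tested genes. The list of variant PRC1 partners held 22 genes, such as Bcor, Mga, L3mbtl2 and Yaf2. The knockout changed 0 of the 22 in fully grown oocytes and MII eggs, against 13.9% and 16.8% of all genes called. In late 1-cell embryos it raised 1, against 17.6% of all genes called: Usp7, a deubiquitinase, by 0.20 ± 0.05 (limma adjusted p = 0.012). In early 2-cell embryos it lowered 4 (Cbx3, Dcaf7, Hdac1 and Hdac2), against 13.5% of all genes called. The median over the 22 was 0.05 there, on the other side of 0. Among the latter the histone deacetylase Hdac1 fell by 0.86 ± 0.25 (adjusted p = 0.023) and the HP1 protein gene Cbx3 fell by 0.85 ± 0.23 (adjusted p = 0.017). In late 2-cell embryos 4 of the 22 rose (Csnk2a1, Hdac2, Max and Skp1a) and 6 fell (Bcorl1, Cbx3, Kdm2a, L3mbtl2, Mga and Wdr5), against 34.2% of all genes called, with a median difference of -0.24 against 0.03 for all genes tested. There the deacetylase Hdac2 rose by 0.98 ± 0.13 (adjusted p = 5.6e-06) and Kdm2a, the relative of Kdm2b that also binds CpG islands, fell by 0.90 ± 0.17 (adjusted p = 0.00024). The late 2-cell difference of Kdm2b was 0.23 ± 0.16 (adjusted p = 0.30), and Kdm2a and Kdm2b were not compared by a test.

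Of 11 canonical PRC1 subunits, the CBX, PHC and SCM genes, 8 were tested in total RNA. The knockout raised 3 and lowered 1 of them in late 2-cell embryos, against 34.2% of all genes called and with a median of 0.23 over the 8, where Phc1 rose by 1.09 ± 0.10 (limma adjusted p = 6.9e-08) and Cbx7, a reader of H3K27me3, fell by 1.11 ± 0.38 (adjusted p = 0.029). In the earlier stages 0 to 1 of the 8 changed, against 13.5% to 17.6% of all genes called. In MII eggs the changed gene was Scml2, which rose by 0.31 ± 0.09 (adjusted p = 0.021). Of 13 PRC2 genes, 4 rose (Eed, Epop, Ezh2 and Suz12) and 2 fell (Lcor and Mtf2) in late 2-cell embryos, against the same 34.2% and with a median of 0.16, with the core subunit Eed up by 0.99 ± 0.20 (adjusted p = 0.00057) and the accessory subunit Mtf2, which fell by 1.09 ± 0.20 (adjusted p = 0.00025). At the other stages at most 2 of the 13 changed, against 13.5% to 17.6% of all genes called. In MII eggs Mtf2 rose by 0.41 ± 0.11 (adjusted p = 0.011) while Rbbp7 fell by 0.21 ± 0.06 (adjusted p = 0.017).

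The 13 H2A deubiquitinase and PR-DUB genes include the deleted gene Bap1, which was among the fallen genes at all 5 stages. With Bap1 counted, 4 of the 13 changed in fully grown oocytes, against 13.9% of all genes, 5 in MII eggs (16.8%), 2 in late 1-cell embryos (17.6%), 4 in early 2-cell embryos (13.5%) and 6 in late 2-cell embryos (34.2%). In late 2-cell embryos 2 rose and 4 fell, with a median of 0.08. Bap1 fell by 2.09 ± 0.16 in fully grown oocytes (limma adjusted p = 5.9e-09) and fell by 1.04 ± 0.26 in late 2-cell embryos (adjusted p = 0.0035). Kdm1b, a histone demethylase of growing oocytes, fell by 0.50 ± 0.10 in MII eggs (adjusted p = 0.00072) and fell by 0.58 ± 0.18 in early 2-cell embryos (adjusted p = 0.040), and was among the genes that rose in late 2-cell embryos. The glycosyltransferase gene Ogt fell by 0.37 ± 0.11 in fully grown oocytes (adjusted p = 0.032), and Mysm1, another H2A deubiquitinase, fell by 0.73 ± 0.17 in late 2-cell embryos (adjusted p = 0.0017).

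Between the day 6.5 tissues, 5 of the 7 canonical PRC1 genes tested were lower in visceral endoderm than in epiblast (Cbx2, Cbx6, Cbx7, Phc1 and Scmh1) and 1 was higher (Cbx8), with a median difference of -1.11 against -0.20 for all genes tested, of which 38.4% were called, 16.8% higher and 21.6% lower. Of 21 variant partners 0 were higher and 6 lower (Auts2, Cbx3, Hdac1, Kdm2a, Mga and Wdr5), with a median of -0.34. Of 12 PRC2 genes 3 were higher and 3 lower, with a median of -0.01.

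Across the 10 groups of total RNA libraries, other genes had courses very close to those of the 8 expressed genes. By Pearson correlation of group means of log2(FPKM + 1), the closest were Ccdc6 (0.998) and Plekha8 (0.997) to Bmi1, Nup160 (0.998) and Melk (0.994) to Kdm2b, Fra10ac1 (0.997) and Psma2 (0.995) to Pcgf1, Ppp1r2 (0.996) and Sesn2 (0.996) to Pcgf5, and Snx6 (0.994) and Kpna2 (0.988) to Pcgf6. Hmgcs1 (0.983) was close to Rybp, Diaph3 (0.977) and Foxn2 (0.977) were closest to Rnf2, and closest to Pcgf3 were Scaf1 (0.965) and Plut (0.956). Among the genes themselves, Pcgf1 ran with Kdm2b (0.918) and against Bmi1 (-0.951), Pcgf5 ran against Kdm2b (-0.982), and Rnf2 ran with Bmi1 (0.889). The 10 groups share library type and the same succession of stages, and these values describe the courses only.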

How the data were processed

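Libraries were 26 total RNA samples of oocytes and early embryos and 11 poly(A) samples of embryonic day 6.5 tissues. The deposited values are FPKM per gene, made by the authors from reads with Trim Galore 0.6.6, STAR 2.7.9 and StringTie 2.1.7 on mm10, per the submitters' processing notes; the strand setting is not given in the sources used here. In the deposited FPKM of control epiblast replicate 1 a value slightly below 0 was set to 0. Each total RNA and poly(A) table was analysed alone.

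Genes at 1 FPKM or more in at least 2 libraries were tested on log2(FPKM + 1) with limma 3.58.1 (R 4.3.3), with 1 weight per stage in total RNA, moderated variances with an intensity trend, and Benjamini-Hochberg adjustment over all genes tested at a threshold of 0.05. This left 15184 genes in total RNA, 13376 for the knockout in epiblast and visceral endoderm, and 13914 for the 3 tissues. The procedure was tested on simulated data. Shares, overlaps of libraries, promoter letters and correlations were computed with Python 3.11.15 and pandas 2.3.3.

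The 10 genes, the Polycomb and marker lists and the tests were chosen with earlier results of these data known. Beyond the 10 genes, the text names up to 2 genes per list and comparison, those with the largest called change and a mean of at least 5 FPKM, with all members of a list named without values where few were called, and the 2 genes most alike to each of the 8, except where a gene is not reported here. Alternatives were another pseudocount of 0.1, no filter on low values or a filter at a mean of 5 FPKM, scaling to TPM, centring on library medians, quantile normalization, no trend, no weights, stages alone, a replicate block, and leaving out each library.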

Additional observations from a re-analysis of the deposited data

Results flagged for a closer look

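The knockout difference of Pcgf6 changed between the 2-cell stages: it was 0.19 ± 0.15 in early and -0.44 ± 0.15 in late 2-cell embryos, a change of -0.63 ± 0.21 (limma adjusted p = 0.043), one of 18.9% of all genes with a called change. In early 2-cell embryos the libraries overlapped, at 26.5, 31.1 and 28.6 FPKM in the knockouts and 27.9, 22.1 and 25.2 in the controls, and in late 2-cell embryos they did not. The call was lost under 11 of 21 alternatives, with values from -0.85 to -0.40, and without late 2-cell control replicate 1, the higher of the control libraries, it was -0.40 (adjusted p = 0.27). The sums of 2-cell and oocyte markers differed between genotypes in the late 2-cell libraries too, and their part was not tested.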

How the results depend on the processing

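Counts below are of the 8 (day 6.5: 10) genes called. The knockout count in fully grown oocytes went from 1 to 0 without a filter, with a mean of at least 5 FPKM, under TPM scaling, under median centring, without a trend, with a replicate block, without weights and with stages alone. In MII eggs it went from 0 to 1 under TPM scaling and median centring and to 2 under quantile normalization. In late 1-cell embryos it went from 1 to 0 under TPM scaling, with the block and without weights. In early 2-cell embryos it went from 1 to 2 under TPM scaling, median centring and without weights. In late 2-cell embryos it went from 2 to 0 without a filter and to 1 under TPM scaling, median centring and the block. The cause of these changes was not tested. The step from fully grown oocytes to MII eggs in knockouts went from 1 to 2 under TPM scaling, where Pcgf2 passed the filter and was called, and to 2 under median centring and 0 without weights. The step to late 1-cell embryos went without weights from 4 to 1 in controls and from 3 to 1 in knockouts, and the step between 2-cell stages in controls went from 5 to 3 without a filter and to 7 without weights. In knockouts that step went from 5 to 7 under median centring, where Rnf2, Pcgf6 and Rybp were gained and Bmi1 lost. The change in the knockout difference from late 1-cell to early 2-cell went from 0 to 1 with a mean of at least 5 FPKM and under median centring, and that between the 2-cell stages from 1 to 0 without a filter, under TPM scaling, under quantile normalization, without a trend and with stages alone. A mean of at least 5 FPKM, which removes low genes, took visceral endoderm against epiblast from 4 to 2 and extraembryonic ectoderm against epiblast from 2 to 1.

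Leaving out 1 library at a time gave knockout counts of 0 to 0 in fully grown oocytes, 0 to 1 in MII eggs, 0 to 1 in late 1-cell, 1 to 1 in early 2-cell and 0 to 2 in late 2-cell embryos. Step counts were 1 to 2 from oocyte to egg in knockouts, 1 to 4 in controls and 2 to 3 in knockouts for the next step, 5 to 6 and 4 to 6 for the third, and 3 to 5 and 5 to 5 for the last. Changes in the knockout difference gave 0 to 1 at early and 0 to 2 at late 2-cell, and the tissues 3 to 5 and 2 to 2. The alternatives for changes in the knockout difference other than TPM scaling, median centring, no weights and stages alone, and quantile normalization for steps, were chosen after seeing the data.

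Same-numbered libraries of the 2 genotypes deviated with correlations of -0.08 to 0.14 at the early stages, so the numbers were not taken as pairs. In epiblast and visceral endoderm, with 2 pairs each, they were 0.59 and 0.42. The fits reported for these tissues still had no replicate block, so their standard errors include any spread shared by same-numbered libraries. Over the alternatives, the block among them, the knockout calls over all genes ranged from 0 to 4 in epiblast and from 0 to 2 in visceral endoderm. With the replicate block the count was 0 in fully grown oocytes and late 1-cell embryos and 1 in late 2-cell embryos, and the early 2-cell Kdm2b call was kept.

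Over all genes, calls for the knockout ranged over the alternatives from 803 to 2271 in fully grown oocytes (2107 as reported), 895 to 3408 in MII eggs (2545), 1176 to 2889 in late 1-cell (2675), 1193 to 4407 in early 2-cell (2046) and 3508 to 6419 in late 2-cell embryos (5197). Median centring moved the median difference by 0.11 in MII eggs and turned the split of higher and lower calls from 998 and 1547 to 2187 and 1114 there, and from 593 and 1514 to 1153 and 1032 in fully grown oocytes. FPKM give no read depth, so no counting error can be stated.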
